A study of Mus musculus with 8 samples.

Results

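The CHD genes encode chromodomain helicase DNA-binding proteins, large ATP-driven enzymes that slide, space or evict nucleosomes. The 8 genes described here (Chd1, Chd2, Chd3, Chd4, Chd6, Chd7, Chd8 and Chd9) were taken by symbol: a row of the expression table was a member when the array's annotation gave it exactly 1 of these symbols. They are 8 of the 19938 genes with such a row, and they hold 38 of the 21789 rows with 1 symbol, over which every share of all rows below is taken: 30 rows of Chd7, 2 of Chd6 and 1 of each other gene. Where 1 row stands for a gene, it is the row with the highest mean over all arrays. The family was put together around Chd7 with results of these data in view. The levels and differences of Chd7 are therefore the values that chose it; they are given as a description, with no test.

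The RNA came from bone marrow progenitors of mice aged 7 weeks, backcrossed to C57BL6, and was hybridised to 8 Affymetrix Mouse Gene 1.0 ST arrays. In the knockout (KO), Vav1-iCre, a Cre recombinase driven in blood cells, acted on 2 floxed alleles of Cbfb, whose protein helps Runx transcription factors to bind DNA. The Het controls had Vav1-iCre too, with 1 of their Cbfb alleles floxed and the other intact, so every group carries Cre and at least 1 floxed allele, and no wild type was measured. LSK cells, which include the blood stem cells and early progenitors, and GMP cells, the progenitors of granulocytes and macrophages, were sorted from 2 mice of each genotype (about 200000 cells, purity above 98%), which gave 2 arrays each of KO LSK, Het LSK, KO GMP and Het GMP. Values are log2 expression values from RMA; a difference of 1 is a doubling.

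The CHD family falls into branches. Chd1 and Chd2 act on transcribed genes; Chd3 and Chd4 are the ATPases of the NuRD complex, which joins remodelling to histone deacetylation; Chd6 to Chd9 form a further branch, whose best known member, Chd7, binds active enhancers. Loss of a copy of human CHD7 causes CHARGE syndrome, a disorder of development. In blood, Chd7 protein has been reported to associate with Runx1 and with the leukemia fusion of Cbfb, and Chd4 is needed to maintain mouse blood stem cells.

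Over the rows with 1 symbol, the correlation was 0.990 to 0.995 between the arrays of a group and 0.955 to 0.983 across groups. Their small number limits the precision; 2 arrays against 2 cannot give an exact two-sided permutation p below 0.333, so all p-values come from limma over the whole table, adjusted by Benjamini-Hochberg, with 0.05 as the threshold. Arrays of a group are labelled as biological replicates, but no label ties an array to a mouse. A p-value here sets a difference of group means against the spread between such arrays only. That spread is pooled over the 4 groups and moderated across rows. Cbfb, the targeted gene, stood at 6.48 and 6.96 in KO GMP, against 7.53 and 7.65 in Het GMP, and fell by 0.86 (SE 0.16, limma adjusted p = 0.0130). In LSK it stood at 6.93 and 6.98 in KO, against 7.56 and 7.55 in Het, and the difference missed the threshold (-0.60, SE 0.16, limma adjusted p = 0.0557). Which part of Cbfb the floxed alleles lose is not given, so the signal left in KO is no measure of the deletion. By limma, 6 of 8 measured GMP markers were higher and 5 of 8 measured LSK markers lower in KO GMP than in KO LSK (Cebpa, Csf1r, Procr, Slamf1 and Meis1 did not pass). In Het, 8 of 8 and 8 of 8 passed. Over all rows, 6.05% passed in KO and 17.5% in Het. Fewer calls in KO were thus general to the table, and nothing is read from the lower count of markers. The median difference of the LSK markers, GMP minus LSK, was smaller in size in KO (-0.97) than in Het (-2.83). That of the GMP markers was similar in KO (2.66) and in Het (2.77).

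Chd7 was the member whose RNA differed most between the groups. Its row with the highest mean (transcript cluster 10503170) stood at 8.66 and 8.43 in KO LSK, against 5.69 and 5.95 in Het LSK. Both KO arrays lay far above both Het arrays, and the KO mean was higher by 2.72 (SE 0.16), a 6.61-fold difference. In GMP cells the same row stood at 9.59 and 9.29 in KO, against 8.91 and 8.71 in Het. Here too the KO arrays lay above the Het arrays, by a smaller step of 0.63 (SE 0.16), or 1.55-fold. In bulk samples like these, more cells of a type that expresses a gene and more RNA per cell cannot be told apart.

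**Figure D1:**
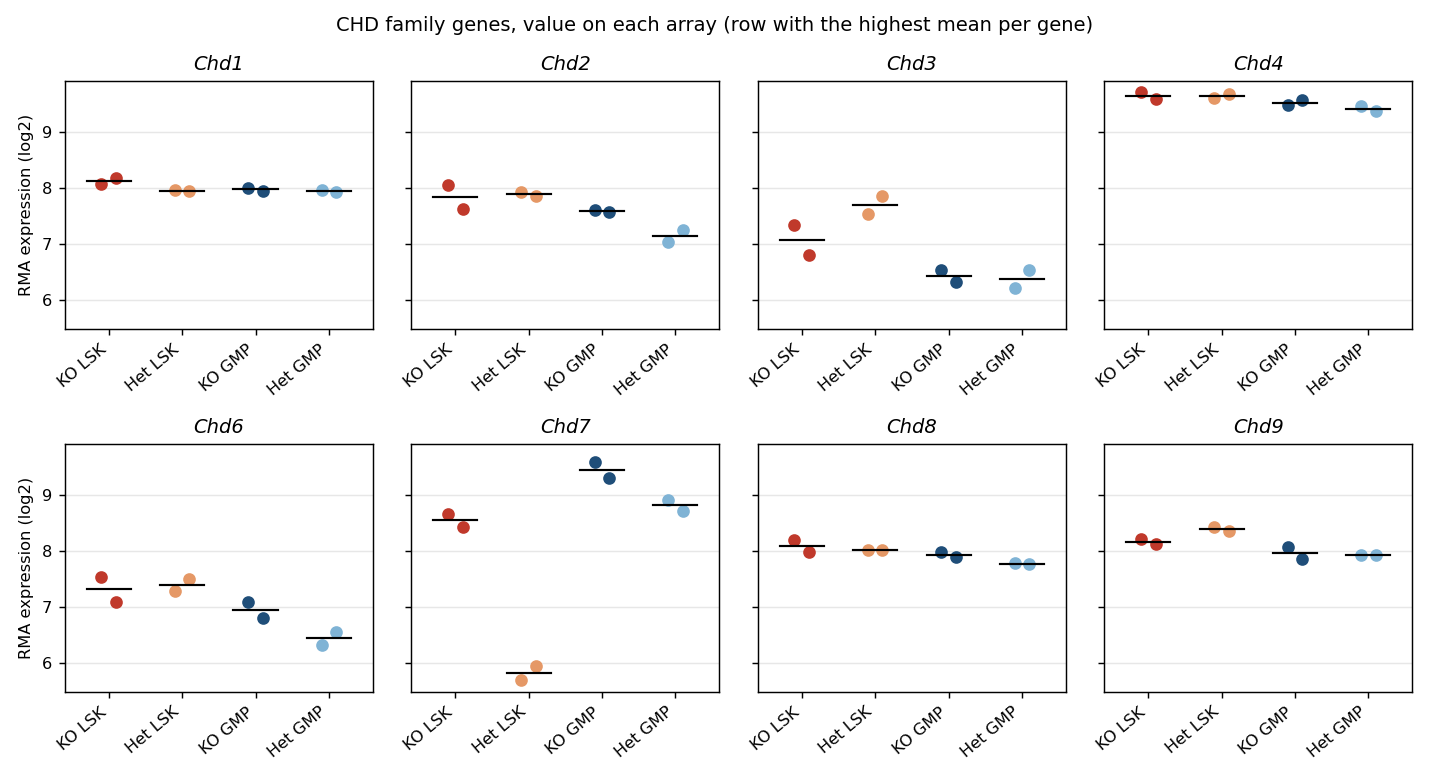
RMA expression (log2, vertical axis) of the 8 CHD genes on each array, by group; points are single arrays and black lines are the means of 2 arrays. Chd7 is at 8.43 or higher on 6 arrays and lowest in Het LSK, at 5.69 and 5.95, while Chd1, Chd4 and Chd8 stay within a narrow range.

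Between the cell types, Chd7 was higher in GMP than in LSK in both genotypes. The KO GMP arrays (9.59 and 9.29) lay above the KO LSK arrays (8.66 and 8.43) by 0.90 (SE 0.16), or 1.86-fold. In Het the distance between GMP (8.91 and 8.71) and LSK (5.69 and 5.95) was 2.99 (SE 0.16), or 7.94-fold. The order of the group means, from low to high, was Het LSK, KO LSK, Het GMP and KO GMP. The closest neighbours were KO LSK and Het GMP, whose means differed by -0.27 (KO LSK minus Het GMP), with 8.66 as the higher KO LSK array and 8.71 as the lower Het GMP array. The step between cell types was thus smaller in KO than in Het, by 2.09 (SE 0.23) on the log2 scale.

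The 30 Chd7 rows are groups of probes along 1 gene on the same arrays, so they are not replicates of a condition, but they show whether the pattern rests on 1 set of probes. In LSK the differences of the rows, KO minus Het, ranged from 0.63 to 3.47 with a median of 2.27. The smallest belonged to transcript cluster 10503204, at 6.64 and 6.50 in KO LSK against 5.80 and 6.07 in Het LSK, and the largest to 10503176, at 7.04 and 6.50 against 3.30 and 3.30. In all 30 rows both KO LSK arrays lay above both Het LSK arrays, which was so in 22.8% of all rows. In GMP the row differences ranged from 0.37 to 0.89 with a median of 0.61, and again both KO arrays lay above both Het arrays in 30 of 30 rows (23.4% of all rows). The size of the LSK difference therefore varied more between rows than that of the GMP difference.

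The cell types were apart in every Chd7 row as well. GMP minus LSK lay between 0.75 and 1.70 in KO (median 1.23) and between 1.01 and 4.09 in Het (median 2.84), with the GMP arrays above the LSK arrays in 30 of 30 rows in both genotypes (21.5% of all rows in KO and 29.7% in Het). All 30 rows had the same order of group means as the row with the highest mean. Also in all 30, both KO LSK arrays lay below both Het GMP arrays (28.2% of all rows lay below and 29.3% above). The medians over the Chd7 rows were 6.41 and 6.17 on the KO LSK arrays and 3.99 and 4.30 on the Het LSK arrays. In GMP they were 7.50 and 7.22 on the KO arrays and 6.89 and 6.89 on the Het arrays. In KO LSK, 1 of the 30 rows lay below the median of its array on both arrays, against 23 in Het LSK; in either GMP group 0 did. RMA gives no detection call, so the Het LSK level of these rows is not shown to be expression and their folds may be understated.

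**Figure D2:**
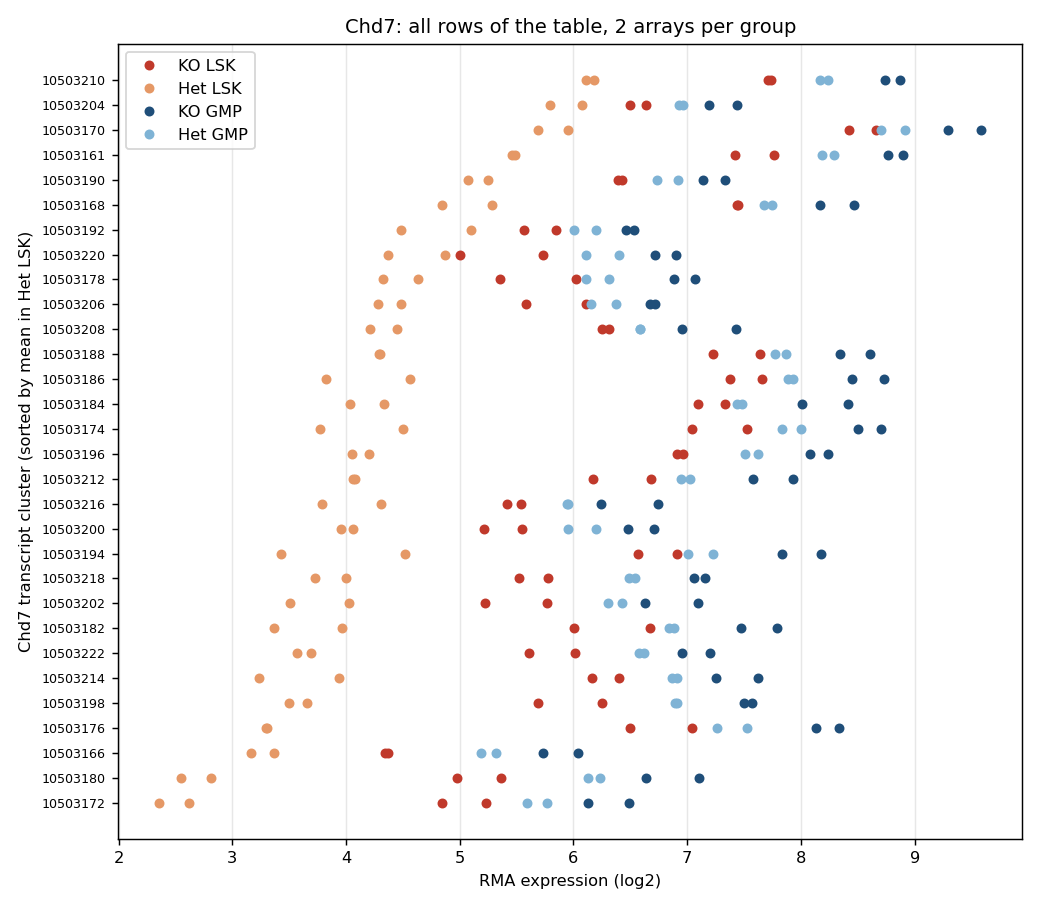
RMA expression (log2, horizontal axis) of the 30 Chd7 transcript clusters, sorted by their mean in Het LSK; each point is 1 of the 2 arrays of a group. In every row the Het LSK points are leftmost, followed by KO LSK, Het GMP and KO GMP.

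Some markers of the sorted cells and of other cell types moved in the same samples, and their part in the Chd7 values was not tested. Of the 8 measured LSK markers, 4 fell in KO LSK relative to Het LSK (Flt3 by 3.41, Mecom by 2.47, Procr by 2.27 and Hlf by 1.11) and 1 rose (Slamf1, by 2.40). Their summed level was 12.14 to 12.48 in KO LSK and 12.50 to 12.64 in Het LSK (log2 of the summed linear values). The KO and Het LSK cells thus differed in genes by which LSK cells are known. Of the 8 measured GMP markers, 1 rose in KO LSK relative to Het LSK (Fcgr3, by 1.07) and 1 fell (Mpo, which fell by 1.19). Their summed level was 11.09 to 11.66 in KO LSK and 12.14 to 12.24 in Het LSK, and 14.18 to 14.28 in KO GMP and 14.42 to 14.45 in Het GMP. Of 6 mast cell and basophil markers, 2 rose (Cpa3 and Hdc) and 1 fell (Mcpt8); the summed level was 11.42 to 11.48 in KO LSK and 9.02 to 9.40 in Het LSK. Of the same list, Cpa3 was higher by 3.92, Hdc by 2.38, Gata2 by 0.62 and Ms4a2 by 0.51 in KO LSK. Each of these had both KO arrays above both Het arrays. By limma, 5 of the 6 had an unadjusted p under 0.05, of which Mcpt8 was lower in KO LSK. The basophil protease gene Mcpt8 averaged 4.38 in KO LSK and 6.08 in Het LSK, and Fcer1a stood near the low end of the scale in all groups (means of 2.13 to 2.47). Of 8 megakaryocyte and platelet markers, 4 rose and 1 fell, with a summed level of 11.54 to 11.88 in KO LSK and 9.88 to 9.91 in Het LSK. In GMP all 8 of these markers rose (11.89 to 12.19 in KO GMP and 8.55 to 8.98 in Het GMP). Of 5 measured B cell markers, 5 fell in LSK, and of 6 monocyte and dendritic cell markers, 5 fell in each cell type.

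Each of the other 7 members was set beside Chd7 in LSK, and a shift of the family as a whole was not tested. By limma, 1 of the 8 members passed in LSK, and it was Chd7 (7.73% of all rows passed, 3.02% as higher and 4.71% as lower in KO); nothing is read from this count, since Chd7 was chosen for its values. With array medians subtracted, the split of called rows was 903 higher and 821 lower, against 657 higher and 1027 lower in the deposited scaling. None of the other 7 passed (adjusted p from 0.117 to 0.988; 1 at an unadjusted p under 0.05, Chd3). Their median difference was -0.05, against 0.01 over all rows, and their range was -0.63 to 0.18. The gene at the lower end was Chd3, a NuRD ATPase: it stood at 7.34 and 6.80 in KO LSK, against 7.54 and 7.85 in Het LSK. Its KO arrays lay below its Het arrays but spread widely, and the difference of -0.63 (SE 0.20) gave adjusted p = 0.117. With each array left out in turn, the Chd3 difference ran from -0.90 (without KO LSK replicate 1) to -0.36.

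The remaining members differed by less in LSK. Chd4, the other NuRD ATPase, stood at 9.71 and 9.58 in KO LSK and at 9.61 and 9.68 in Het LSK, which overlap (difference -0.0049, SE 0.12). Chd1, which recognises a histone mark of active promoters, stood at 8.07 and 8.19 in KO LSK and 7.96 and 7.94 in Het LSK (0.18, SE 0.11). Both KO arrays lay above both Het arrays there, without passing (limma adjusted p = 0.441). Chd9 lay the other way, at 8.20 and 8.11 in KO LSK and 8.43 and 8.35 in Het LSK (-0.23, SE 0.12, limma adjusted p = 0.349). Of the 8 members, 2 (Chd3 and Chd9) thus had both KO LSK arrays below both Het LSK arrays, as had 22.7% of all rows. Chd2, Chd6 and Chd8 overlapped between the genotypes, with differences of -0.05 (SE 0.16), -0.08 (SE 0.18) and 0.07 (SE 0.12). The second Chd6 row (transcript cluster 10578189) stood at 6.87 and 7.02 in KO LSK and at 6.74 and 6.94 in Het LSK, so that the 2 rows differed in sign there (0.10, SE 0.13, for the second).

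In GMP cells 0 of the 8 members passed the limma test of KO against Het (6.02% of all rows did). At an unadjusted p under 0.05, 3 did: Chd2, Chd6 and Chd7, the last chosen for its values. No share of all rows was taken at that level, so nothing is read from such counts of members in any comparison. The difference of every member was above 0, from 0.03 to 0.63, and the median without Chd7 was 0.11, against -0.02 over all rows. The mean of the array medians was higher in KO GMP than in Het GMP by 0.05. With array medians subtracted, Chd1 (-0.023) and Chd9 (-0.0091) fell below 0. Chd6, a remodeller of the Chd7 branch, stood at 7.08 and 6.80 in KO GMP, against 6.33 and 6.55 in Het GMP. Those arrays do not overlap, and the difference was 0.50 (SE 0.18, adjusted p = 0.182). In its second row the difference was 0.31 (SE 0.13, limma adjusted p = 0.250). Chd2, which promotes deposition of a variant histone at active genes, stood at 7.61 and 7.57 in KO GMP, against 7.04 and 7.26 in Het GMP. Its groups were also apart, by 0.44 (SE 0.16, adjusted p = 0.171).

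Chd8, known for binding the insulator factor Ctcf and beta-catenin, stood at 7.98 and 7.88 in KO GMP and 7.78 and 7.77 in Het GMP (0.16, SE 0.12). Chd4 stood at 9.47 and 9.56 in KO GMP and 9.46 and 9.37 in Het GMP (0.11, SE 0.12). In these and in Chd2, Chd6 and Chd7, 5 of the 8 members, both KO GMP arrays lay above both Het GMP arrays, as in 23.4% of all rows. Chd7, among these 5, was chosen for its values. Chd1 (0.03, SE 0.11), Chd3 (0.06, SE 0.20) and Chd9 (0.04, SE 0.12) overlapped. No member had its KO GMP arrays below its Het GMP arrays (27.9% of all rows).

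**Figure D3:**
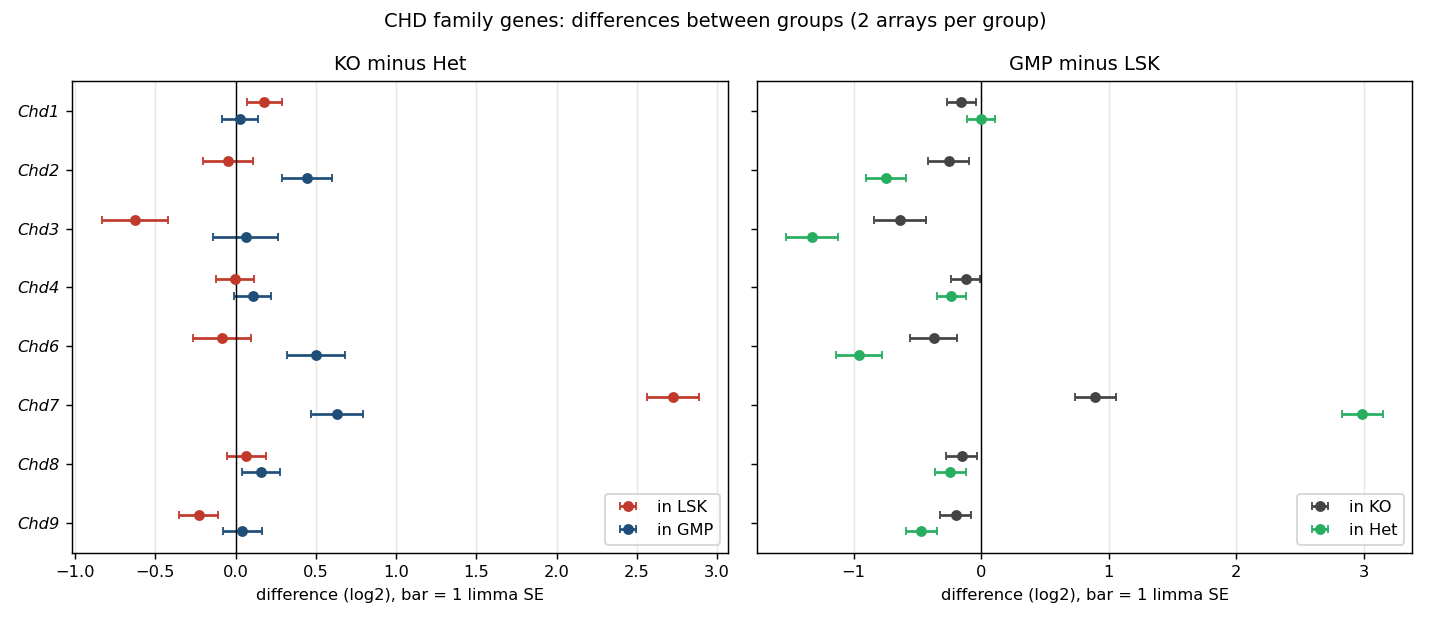
Differences of the 8 CHD genes (log2, horizontal axis) as KO minus Het in LSK and in GMP (left) and GMP minus LSK in KO and in Het (right); points are limma estimates from 2 arrays per group and bars are 1 SE. Chd7 stands at 2.72 in LSK and 2.99 between the Het cell types, while the other 7 members lie between -0.63 and 0.50 on the left and at or below 0 on the right.

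Whether the effect of KO differed between GMP and LSK was tested by the interaction. It was passed by 1 of the 8 members, Chd7 (2.29% of all rows passed, 1.69% as higher and 0.601% as lower), with the difference described above; nothing is read from this count, since Chd7 was chosen for its values. The split over all rows was 275 higher and 196 lower with array medians subtracted, against 368 and 131 in the deposited scaling. Among the other 7, Chd3 (0.69, SE 0.29), Chd6 (0.58, SE 0.26) and Chd2 (0.49, SE 0.22) had the largest values, all with a higher KO effect in GMP than in LSK, and none passed (limma adjusted p from 0.352 to 0.901 over the 7; 2 of the 7 at an unadjusted p under 0.05).

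The step from LSK to GMP in Het moved several members down. Of the 8 members, 5 passed limma's test (17.5% of all rows did), 4 of them lower in GMP (9.60% of all rows): Chd2, Chd3, Chd6 and Chd9. The fifth was Chd7, which was higher (7.90% of all rows) and was chosen for its values. The mean of the array medians was lower in Het GMP than in Het LSK by 0.16, so differences after each array's median was subtracted are given beside the deposited ones. The median of the row differences was 0.0066 over all rows, so the typical row did not fall by 0.16. The subtracted values therefore show only how the results depend on the scaling. That subtraction turned the split of called rows to 3203 higher and 1569 lower, against 1721 and 2092 in the deposited scaling. Chd3 stood at 6.21 and 6.53 in Het GMP, against 7.54 and 7.85 in Het LSK. It fell by 1.32 (SE 0.20, adjusted p = 0.00215), a 2.50-fold lower level, and by 1.17 after the subtraction. This was the member besides Chd7 that passed with each of the 8 arrays left out in turn.

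Chd6 stood at 6.33 and 6.55 in Het GMP, against 7.29 and 7.50 in Het LSK, and fell by 0.96 (SE 0.18, limma adjusted p = 0.00641; 0.80 lower after the subtraction). Its second row gave 6.52 and 6.51 in Het GMP and 6.74 and 6.94 in Het LSK, the same direction with a smaller difference that did not pass (-0.32, SE 0.13, limma adjusted p = 0.128). The 2 rows thus disagree on size. Chd2 stood at 7.04 and 7.26 in Het GMP, against 7.92 and 7.86 in Het LSK, and fell by 0.75 (SE 0.16, limma adjusted p = 0.0108; 0.59 lower after the subtraction). For both genes the Het GMP arrays lay clearly below the Het LSK arrays. The Chd6 call was lost without Het LSK replicate 2 (limma adjusted p = 0.0567) or Het GMP replicate 1 (0.0622). That of Chd2 was lost without Het LSK replicate 1 (0.0594) or 2 (0.0541) or Het GMP replicate 1 (0.0946).

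Chd9, whose function in blood is little described, stood at 7.92 on both Het GMP arrays, against 8.43 and 8.35 in Het LSK, and fell by 0.47 (SE 0.12, limma adjusted p = 0.0274). The call was lost after the array medians were subtracted (-0.31, limma adjusted p = 0.0942), in a fit over all 35556 rows (0.0581) and without any 1 of the 4 Het arrays (0.0853 to 0.126). Chd4 (-0.23, SE 0.12) and Chd8 (-0.24, SE 0.12) lay lower in Het GMP without passing, so that 6 of the 8 members had both Het GMP arrays below both Het LSK arrays (28.2% of all rows). Chd1 did not separate, at 7.96 and 7.93 in Het GMP and 7.96 and 7.94 in Het LSK.

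In KO the differences between GMP and LSK were smaller in size for the members that fell in Het. By limma, 1 of the 8 members passed, Chd7 (6.05% of all rows passed, 3.66% as higher and 2.39% as lower in GMP), from which nothing is read for the same reason, and 0 of the other 7 did (adjusted p from 0.122 to 0.639; 1 at an unadjusted p under 0.05). Chd3 stood at 6.54 and 6.33 in KO GMP, against 7.34 and 6.80 in KO LSK (-0.63, SE 0.20, adjusted p = 0.122). A replicate block by genotype and replicate number pairs arrays that may come from 1 mouse. With that block the Chd3 difference passed (limma adjusted p = 0.0336). With each array left out in turn it ran from -0.90 (without KO LSK replicate 2) to -0.36. Chd6 differed by -0.37 (SE 0.18), Chd2 by -0.25 (SE 0.16) and Chd9 by -0.20 (SE 0.12). Both KO GMP arrays lay below both KO LSK arrays in 6 of the 8 members (26.0% of all rows), namely Chd1, Chd2, Chd3, Chd4, Chd6 and Chd9. That the step differed between the genotypes was not shown for any of these 7, as the interaction above states.

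Other genes of chromatin remodelling were read from lists chosen by function. Chd5, the third NuRD-type CHD gene, known from neurons, and Chd1l, a remodeller recruited to DNA damage, passed in 0 of the 5 limma comparisons, also at an unadjusted p under 0.05; Chd5 lay between 4.32 and 4.60 on all arrays. Of 12 NuRD partners of Chd3 and Chd4, 0 passed in LSK (3 at an unadjusted p under 0.05) and 1 rose in GMP (list medians -0.08 and -0.05, against 0.01 and -0.02 over all genes). The gene was Mta3, a subunit that sets NuRD targets, at 7.29 and 7.49 in KO GMP and 6.51 and 6.77 in Het GMP (0.75, SE 0.13, limma adjusted p = 0.0107). The call was lost without Het GMP replicate 1 (limma adjusted p = 0.106) or KO GMP replicate 2 (0.107), and with the mean of all its rows (0.0872). Mta3 and Mta1 were also lower in Het GMP than in Het LSK.

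Of 24 subunits of the BAF and PBAF complexes, the remodellers built on Smarca2 or Smarca4, 0 rose and 2 fell in LSK, and 0 passed in GMP (4 at an unadjusted p under 0.05; list medians -0.11 and 0.04). Smarca2 stood at 7.60 and 7.61 in KO LSK, against 8.25 and 8.50 in Het LSK (-0.77, SE 0.13, limma adjusted p = 0.00645; 0.0537 without Het LSK replicate 2). It was also lower in Het GMP than in Het LSK, by 0.97, and so ran opposite to Chd7 in both comparisons. Bcl7c fell by 0.51 in LSK (SE 0.12, limma adjusted p = 0.0303), a call lost in 9 of the settings tried. In the 11 measured ISWI genes, 1 fell in LSK, Cecr2 (3.47 and 3.75 in KO LSK, against 5.51 and 4.86 in Het LSK), whose level in KO lay near the low end of the scale, and 0 passed in GMP (1 at an unadjusted p under 0.05). Its LSK difference was -1.57 (SE 0.22, limma adjusted p = 0.00234), and the list medians were 0.01 in LSK and 0.07 in GMP.

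Of 19 measured INO80, SRCAP and TIP60 subunits, 1 rose in LSK (Ino80c, 0.65, SE 0.13, limma adjusted p = 0.0161). In GMP 0 passed (1 at an unadjusted p under 0.05), and the list medians were -0.09 and 0.05. The Ino80c call was lost with all rows tested (limma adjusted p = 0.0528) and in a fit of the 2 groups alone (0.0665). It was also lost without Het LSK replicate 2 (difference 0.55) or KO LSK replicate 2 (0.57). Of 12 further remodellers of the SNF2 family, 0 passed in either cell type by limma (1 in LSK and 0 in GMP at an unadjusted p under 0.05; list medians 0.02 and -0.06). Of 13 genes of the histone methyltransferase complexes of the MLL type and Chd8 partners, 0 passed in LSK (1 at an unadjusted p under 0.05) and 1 rose in GMP (list medians 0.05 and 0.02). That was Kmt2a, at 8.97 ± 0.05 in KO GMP and 8.23 ± 0.16 in Het GMP (SD, n = 2 each). The difference was 0.73 (SE 0.17, limma adjusted p = 0.0372). Its call was lost with all rows tested (limma adjusted p = 0.128). It was also lost without any 1 of the 4 GMP arrays (differences of 0.62 to 0.85). Over all 19938 genes, 1558 passed in LSK and 1231 in GMP, and nothing is read from these list counts beyond their size.

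The genes whose values followed those of Chd7 most closely were found by the root mean square difference over the 8 arrays, after each gene was centred on its own mean. The 5 closest were Fcgr2b (0.35 on the log2 scale), an inhibitory receptor for antibodies, Hdc (0.49), the enzyme that makes histamine, Papss2 (0.52), an enzyme of sulfate activation, Pstpip2 (0.66), an adaptor of the cytoskeleton in myeloid cells, and Apoc1 (0.66), an apolipoprotein gene. Fcgr2b stood at 8.14 and 7.89 in KO LSK, against 5.72 and 5.43 in Het LSK, and at 8.73 and 8.38 in KO GMP, against 7.74 and 7.78 in Het GMP. Like Chd7 it was lowest in Het LSK and highest in KO GMP. Unlike in Chd7, both KO LSK arrays of Fcgr2b lay above both of its Het GMP arrays. In Papss2 the KO GMP arrays (7.64 and 7.75) lay below the Het GMP arrays (7.86 and 7.96), unlike Chd7. These arrays form 4 pairs of like samples, so close profiles are a description of 8 arrays. Of the other CHD genes Chd1 had the smallest difference, at 1.38, with 7825 genes closer to Chd7 than it was. The farthest was Chd3, at 1.90, with 19479 closer. By this measure a gene that changes little is nearer than one that moves the other way. Chd1 stood between 7.93 and 8.19 on all arrays, so its place shows no likeness to Chd7.

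**Figure D4:**
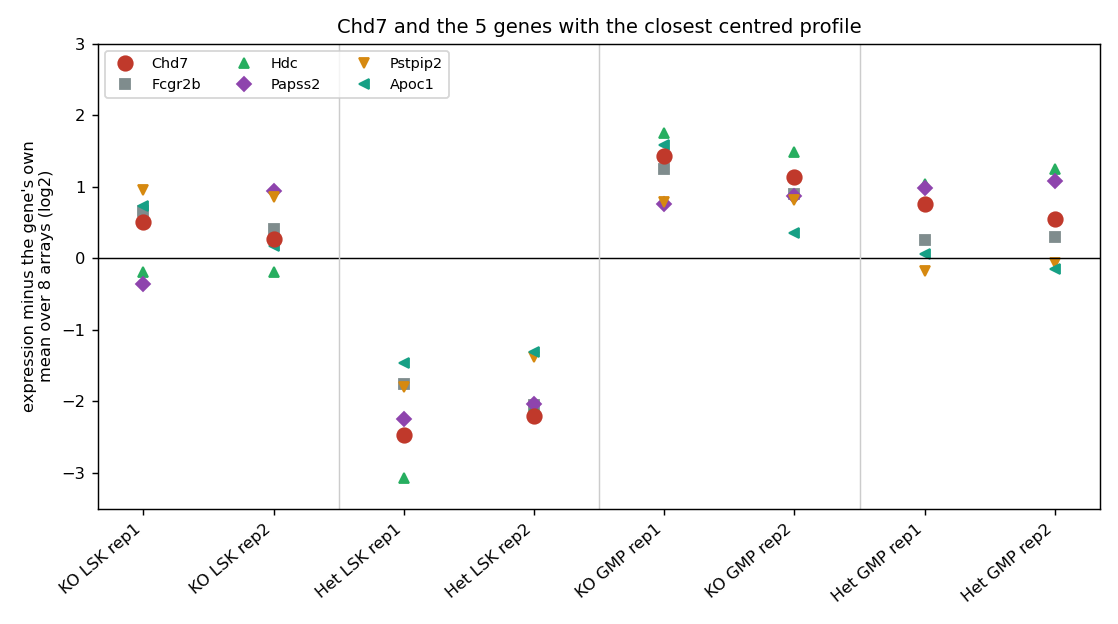
Expression of Chd7 and of the 5 genes with the closest profile (log2, vertical axis), each minus its own mean over 8 arrays, on every array. All 6 genes are lowest on the Het LSK arrays, and Fcgr2b stays nearest to Chd7, with a root mean square difference of 0.35.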

How the data were processed

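Per the submitters' processing notes, the authors made the deposited log2 expression values with RMA, which corrects the background, normalizes the arrays to 1 distribution and summarises probes per transcript cluster. Software, version and genome build were not given in the sources used here. RMA normalization would hide a shift of all transcripts together, and dim rows understate a change. RNA was amplified before labelling.

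The table held 35556 rows: 21789 with exactly 1 gene symbol in the platform annotation, 1621 with several and 12146 with none. Differences were tested with limma 3.58.1 (R 4.3.3), with 1 mean for each of 4 groups over 8 arrays, 4 residual and 4.83 prior degrees of freedom, two-sided, and Benjamini-Hochberg adjustment over 21789 rows in each of 5 contrasts. The fit was also run on simulated data with independent normal noise and known shifts, equal in KO LSK and KO GMP. That run does not check how the real arrays vary, and nothing is read from it here. Gene lists and profiles used 1 row per gene. Named genes were all members, up to 3 called genes per list with the largest difference between KO and Het, and the 5 closest profiles; Mta1 in the cell type comparison, the markers named and Chd5 with Chd1l stand outside that rule or come from the fixed lists. Members and lists were chosen with earlier results of these data known.

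Alternatives were array medians subtracted, all rows tested, a filter on dim rows, an intensity trend, mean rows per gene, fits of 2 groups, 2 replicate blocks and each array left out. The labels do not say that equal numbers mark 1 mouse: deviations of same-numbered LSK and GMP arrays correlated at 0.179 in KO and 0.133 in Het, and those of KO and Het arrays, which come from different mice, at -0.143 in LSK and -0.0255 in GMP. No sequence is printed.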

Additional observations from a re-analysis of the deposited data

Results flagged for a closer look

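The estimated effects of KO on Chd7 lay apart in the 2 cell types: KO minus Het was 0.63 in GMP and 2.72 in LSK, so that the GMP effect minus the LSK effect was -2.09 (SE 0.23), as estimated by limma's interaction term. Chd7 was chosen with these values known, so the term is no independent test, and all values here are a description. The GMP effect was smaller than the LSK effect in all 30 Chd7 rows, with values of -2.64 to -0.20. As the rows share the arrays, this adds no support. With each array left out in turn the value of the highest-mean row lay between -2.24 and -1.95. No group held enough arrays for a test of outlying samples.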

How the results depend on the processing

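The count of members that passed in LSK (1) and in the interaction (1) held in all the settings that could be run, except that without single arrays the LSK count ran from 1 to 2. In GMP the count of 0 became 1 (Chd7) with dim rows left out, with an intensity trend or with the mean of all rows of a gene, and ran from 0 to 1 without single arrays (1 without KO LSK replicate 1 or 2). Between GMP and LSK in Het it was 5 and ran from 2 to 5 (2 without Het LSK replicate 2 or Het GMP replicate 1, 3 without Het LSK replicate 1). In KO it was 1, became 0 when all 35556 rows were tested and 2 with the replicate block by genotype and number (Chd3 added), and ran from 0 to 2 (0 without KO GMP replicate 1). The replicate block by number alone changed no count (1 in LSK, 0 in GMP). Chd7 was chosen for its values, so nothing is read from its calls in any setting.

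Small differences of members that did not pass changed sign. With array medians subtracted they became 0.15 (Chd1, GMP against LSK in Het), -0.023 (Chd1) and -0.0091 (Chd9) for KO against Het in GMP, 0.040 (Chd2), 0.082 (Chd4) and 0.0037 (Chd6) in LSK, and -0.027 (Chd4) and -0.045 (Chd8) in the interaction; with mean rows Chd6 in LSK was 0.010. Without single arrays, ranges that crossed 0 were -0.019 to 0.014 (Chd1, GMP against LSK in Het), -0.0016 to 0.056 (Chd1), -0.10 to 0.22 (Chd3) and -0.060 to 0.14 (Chd9) in GMP, -0.26 to 0.17 (Chd2), -0.069 to 0.059 (Chd4), -0.31 to 0.14 (Chd6) and -0.042 to 0.17 (Chd8) in LSK, and -0.014 to 0.20 (Chd8, interaction). The cause was not tested. With 2 arrays a group, a lone array was assumed to vary like the other groups. The median Chd7 row difference without single arrays was 2.04 to 2.38 in LSK and 0.48 to 0.77 in GMP.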
